A study of Rattus norvegicus with 10 samples.

Results

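The interferon gamma (IFN-gamma) receptor, the Janus kinases (JAKs) and STAT transcription factors behind it, and the inhibitors that shut them down were followed in cultured rat microglia, the resident macrophages of the brain. Members were every probe set whose only annotated symbol was Ifngr1, Jak2, Jak3, Stat3, Stat5a, Stat5b, Cish, Socs3 or Ptpn6. These were 14 of the 8740 probe sets tested and 9 of 4736 genes. All 14 were tested, since no filter on low values was applied. The IFN-gamma group held 3 cultures of microglia from neonatal rat brain that had received fresh medium with 100 U/ml IFN-gamma for 16 hours. The control group held 5 independent cultures given fresh medium alone. Both groups had been grown from brain tissue, with 1 brain per flask, in 15% fetal calf serum and were plated on day 15. IFN-gamma culture 1 was hybridised to 3 technical arrays (1a, 1b and 1c), which were averaged and counted as 1 culture. The study asked how microglia respond to activation by IFN-gamma.

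IFN-gamma binds a receptor of 2 chains, of which Ifngr1 encodes the one that holds the ligand. JAK1 and JAK2, kinases docked on the chains, then phosphorylate the receptor and the STAT proteins drawn to it. STAT3 and STAT5 carry the signals of many cytokines by this route, and their dimers enter the nucleus and bind the site TTCNNNGAA. CIS (gene Cish) and SOCS3 are made in response to STAT activity and block receptors and JAKs, while SHP-1 (gene Ptpn6) removes phosphate from them. Much of the pathway is therefore regulated by phosphorylation, which an RNA array does not measure. Ifngr2, Tyk2, Irf9, Socs1 and Usp18 are not analysed here.

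Levels are normalised log2(signal + 16) values, on which a signal of 0 lies at 4, so the fold change of a dim probe set is understated. The arrays' median signal averaged 17.9 ± 2.78 over the IFN-gamma cultures (SD, n = 3) and 15.3 ± 5.49 over the controls (SD, n = 5; exact permutation p = 0.518, two-sided). Control culture 3 was the dimmest array, with a median of 7.4. Genes of the lists were counted by their brightest probe set, by which 0.887% of all genes rose and 0.697% fell. Of 12 measured interferon response genes 11 rose and 0 fell. The list was chosen with earlier results of these data known, so the count is not independent of them. By the brightest probe set all 12 had every IFN-gamma culture above every control. The share over all probe sets, not picked by gene, was 4.28%. Irf7 overlapped by its dimmer probe set (0.36, adjusted p = 0.671 by limma). Irf1, a transcription factor gene induced by interferons, stood at 9.07 ± 0.124 with IFN-gamma (SD, n = 3) and at 5.74 ± 0.21 in the controls (SD, n = 5). Its difference was 3.33 (adjusted p = 1.08e-05). Of 10 measured microglia and macrophage markers 3 rose (Lyz2, C1qb and C1qc) and 0 fell. Their summed normalised signal was 9474 to 10521 with IFN-gamma and 4027 to 4916 in the controls. Lyz2, the brightest of them, weighs most in that sum (12.4 with IFN-gamma, 10.8 in the controls). By gene the log2 fold changes of the list ran from -0.34 (Cd14) to 1.61 (Lyz2), with a median of 0.54. Aif1, Cd14 and Ctss were well above the floor in both groups, whereas Csf1r (4.88 with IFN-gamma, 4.73 in the controls) and Cx3cr1 (4.91 and 5.19) were close to it. Of 8 astrocyte markers 2 fell, Glul and Vim, and the list summed to 331 to 405 with IFN-gamma and to 796 to 1113 in the controls. By gene its log2 fold changes ran from -1.66 to 0.13, with a median of only -0.16, so the sums do not describe the list as a whole. Aqp4, a defining astrocyte gene, lay near the floor at 4.67 with IFN-gamma and 4.84 in the controls. Of 11 T and natural killer cell markers 1 fell, Cd4, which rat macrophages also express. That list summed to 192 to 217 with IFN-gamma and to 284 to 356 in the controls. None of 6 oligodendrocyte, 6 neuron or 9 fibroblast and vessel markers passed by the brightest probe set, although Col1a1 fell by another probe set (log2 fold change -1.20, adjusted p = 0.0239). The fibroblast and vessel list summed to 231 to 260 with IFN-gamma and to 269 to 368 in the controls. The sums of the oligodendrocyte and neuron lists overlapped between groups. The part of these markers in the results below was not tested, and in a bulk sample fewer cells of a type and less RNA per cell cannot be told apart.

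Among the 9 pathway genes only the inhibitor gene Cish passed the test. Of the 14 probe sets 1 rose and 0 fell (adjusted p under 0.05 by limma), where 1.53% of all probe sets passed, 0.927% of all higher and 0.606% lower. Groups did not overlap for 4 of the 14, all higher with IFN-gamma: the Cish probe set, 1 of 3 Jak2 probe sets and both Ptpn6 probe sets, which come from the same transcript record. Over all probe sets 7.68% had groups that did not overlap, 4.28% with the IFN-gamma cultures above the controls and 3.4% with them below. The median log2 fold change was 0.05 over the 14 probe sets and -0.02 over all probe sets. The 95% confidence interval of the difference included 0 for 10 of the 14. It left out 0, with an unadjusted limma p under 0.05, for the other 4, as for 10.5% of all probe sets. The mean level over all cultures was below 5 for 5 of the 14, close to the floor of 4. These were Cish, Jak2 U13396_at and AJ000557cds_s_at, Jak3 and Stat3 X91810_at. A missing call at such a level does not show that a gene was unchanged.

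**Figure D1:**
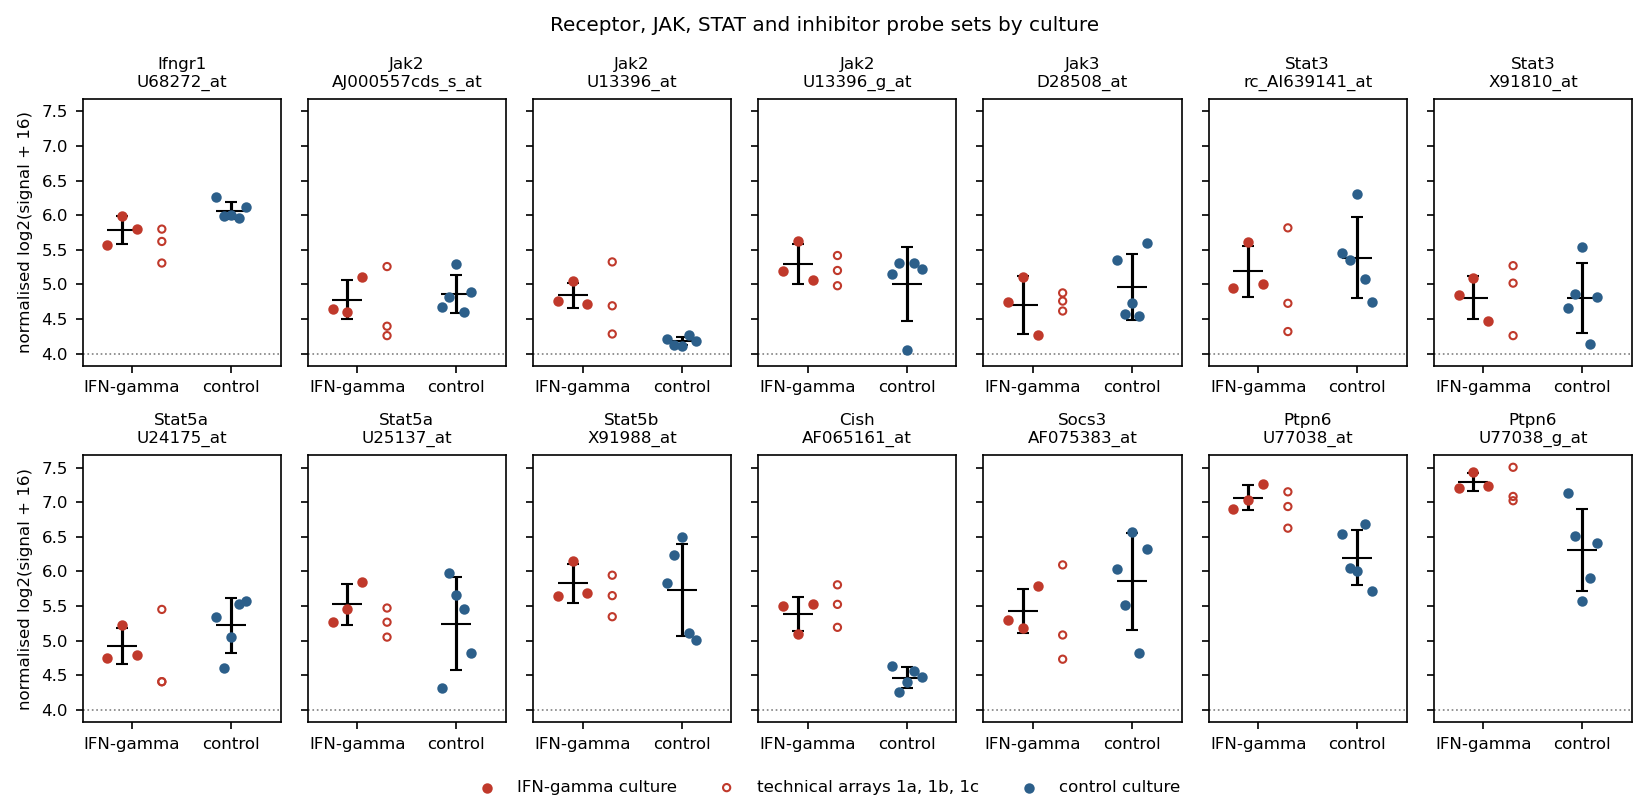
Normalised log2(signal + 16) of the 14 probe sets (y axis), with a filled point per IFN-gamma culture (red, left) or control culture (blue, right), open circles for the technical arrays of IFN-gamma culture 1, and the mean with its SD in black. The dotted line at 4 marks a signal of 0. The IFN-gamma cultures lie above every control for Cish, for Jak2 U13396_at and for both Ptpn6 probe sets, and the groups overlap in the other 10 panels.

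**Figure D2:**
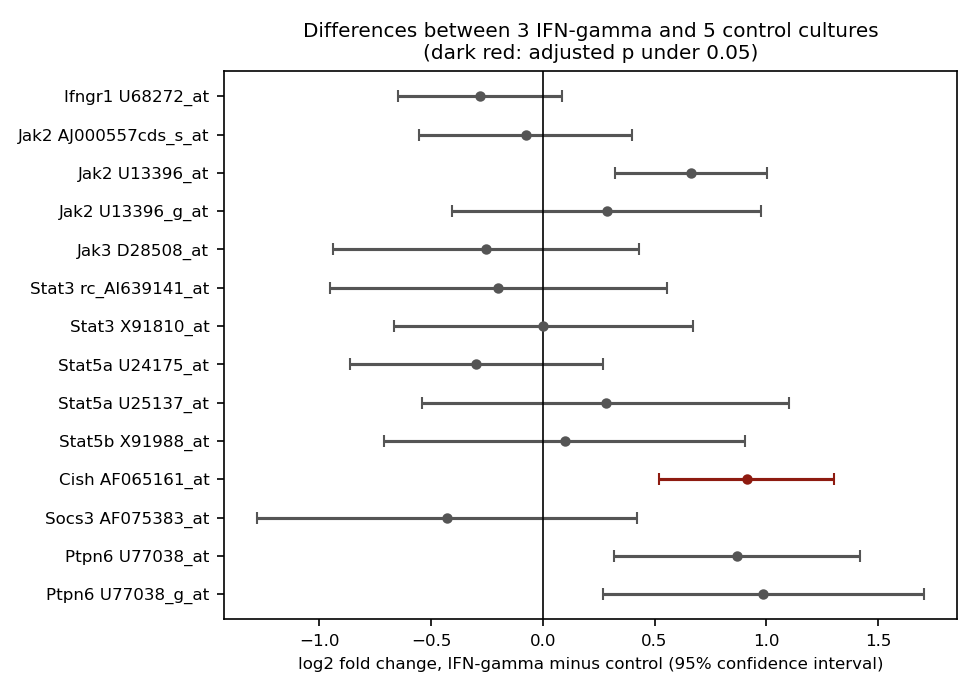
Log2 fold change of IFN-gamma minus control for the 14 probe sets (x axis), with bars for the 95% confidence interval of the limma fit on 3 and 5 cultures. Cish, in dark red, passed the threshold at 0.91, and the interval of 10 probe sets crosses 0.

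The receptor gene Ifngr1 was measured by 1 probe set. It stood at 5.58, 5.98 and 5.80 in IFN-gamma cultures 1, 2 and 3, against 6.26, 5.98, 6.003, 5.96 and 6.12 in control cultures 1, 2, 3, 5 and 6. IFN-gamma cultures 1 and 3 lay below all 5 controls and culture 2 lay within their narrow range. The difference was -0.28 ± 0.163 (SE), with a 95% interval from -0.65 to 0.09 and did not pass (adjusted p = 0.648). With no scaling between arrays it was -0.03 (adjusted p = 0.992).

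The kinase gene Jak2 had 3 probe sets that did not move alike. The dimmest, U13396_at, stood at 4.77, 5.04 and 4.72 in the IFN-gamma cultures, against 4.21, 4.13, 4.11, 4.26 and 4.18 in the controls. All 5 controls lay near the floor, and the 3 IFN-gamma cultures were above every control. In deposited signal this was 2.6, 36.5 and 6.9 on arrays 1a, 1b and 1c, 18.5 in culture 2 and 13.8 in culture 3, against 0.9 to 3.8 in the controls. The technical arrays of culture 1 spread more widely (a range of 1.04 after normalisation) than the 3 IFN-gamma cultures did, and the deposited signal of array 1a lay within the control range. The difference was 0.66 ± 0.151 (SE; adjusted p = 0.0816), which did not pass. It passed in 3 of the other settings, which were array 1b alone for culture 1 (0.85, adjusted p = 0.0488), a pseudocount of 1 (2.06, adjusted p = 0.0435) and a trend and robust prior (0.66, adjusted p = 0.0361). With array 1a alone the adjusted p was 0.384, and with a pseudocount of 64 the difference was 0.22 (adjusted p = 0.0904).

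The brightest Jak2 probe set, U13396_g_at, was designed on the same transcript record and was counted among the probe sets of reduced specificity. It averaged 5.29 ± 0.293 with IFN-gamma (SD, n = 3) and 5.01 ± 0.536 in the controls (SD, n = 5). Control culture 3 alone stood low, at 4.06, while the other 4 controls lay between 5.15 and 5.31. The difference was 0.29 (adjusted p = 0.863), and 0.05 without control culture 3. The remaining probe set, AJ000557cds_s_at, had a difference of -0.08 (adjusted p = 0.964), and 0.03 without control culture 3. AJ000557cds_s_at was also counted as of reduced specificity. An alternative setting left out probe sets of that kind.

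Jak3 encodes the kinase bound to the common gamma chain of the interleukin 2 receptor family, which lymphocytes use widely. Its level was close to the floor, at 4.75, 5.10 and 4.27 in the IFN-gamma cultures, against 5.35, 4.58, 4.73, 4.54 and 5.60 in the controls. Control cultures 1 and 6 were the highest, IFN-gamma culture 3 was the lowest, and the other IFN-gamma cultures lay within the control range. The difference was -0.25, with an interval from -0.94 to 0.43 (adjusted p = 0.884).

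The STAT genes Stat3, Stat5a and Stat5b encode the transcription factors used by the interleukin 6 and interleukin 10 family (STAT3) and by growth hormone, colony-stimulating factors and interleukin 2 (STAT5). They neighbour each other in the rat assembly GRCr8, with 0 annotated genes between Stat5b and Stat5a and 0 between Stat5a and Stat3. None of their 5 probe sets passed, and all 5 overlapped between groups. The 2 Stat3 probe sets had differences of -0.20 (interval -0.95 to 0.56, adjusted p = 0.934) and 0.00 (interval -0.66 to 0.67, adjusted p = 0.999). For both, control culture 3 was the highest of the 8 cultures, at 6.31 and 5.54. Without it the difference of the brighter, rc_AI639141_at, was 0.03.

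Stat5a was measured by 2 probe sets with opposite signs. U25137_at stood at 5.26, 5.46 and 5.85 in the IFN-gamma cultures, against 4.31, 5.98, 5.66, 5.46 and 4.82 in the controls. U24175_at stood at 4.75, 5.23 and 4.79 in the IFN-gamma cultures, against 5.35, 4.61, 5.05, 5.53 and 5.58 in the controls. Control cultures 1 and 6 were the lowest by the first probe set and were among the 3 highest by the second. The differences were 0.28 (adjusted p = 0.896) and -0.30 (adjusted p = 0.809). Stat5b, a close paralogue of Stat5a whose probes may also bind Stat5a RNA, averaged 5.83 ± 0.281 with IFN-gamma (SD, n = 3) and 5.73 ± 0.664 in the controls (SD, n = 5). Its difference was 0.10, with an interval from -0.71 to 0.91 (adjusted p = 0.975), and it was -0.35 with culture number as a block.

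Cish encodes CIS, which docks on phosphorylated cytokine receptors and keeps STAT5 from them. Its deposited signal was 22.3, 30.9 and 29.4 on the technical arrays of IFN-gamma culture 1, 19.7 in culture 2 and 42.1 in culture 3, against 11.6, 2.4, 2.9, 8.8 and 7.4 in control cultures 1, 2, 3, 5 and 6. Every IFN-gamma array was brighter than every control array before any normalisation. After it the level was 5.51, 5.10 and 5.53 in the IFN-gamma cultures, against 4.64, 4.26, 4.41, 4.56 and 4.47 in the controls. The controls lay close to the floor and the lowest IFN-gamma culture stood above the highest control. Cish rose 1.88-fold (log2 fold change 0.91 ± 0.173 SE, 95% interval 0.52 to 1.30, adjusted p = 0.037 by limma).

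The direction of Cish was the same in all 21 other settings that tested it, and its adjusted p was under 0.05 in 8 of them. The size depended on the constant added before the log, at 1.93 with a pseudocount of 1 (adjusted p = 0.0824) and 0.36 with 64 (adjusted p = 0.0334). The call was lost with no scaling between arrays (adjusted p = 0.19), with array medians subtracted (0.118), with the trimmed mean (0.0658), with array 1b alone for culture 1 (0.0561), with a trend and robust prior (0.114) and with culture number as a block (0.328). It was also lost without IFN-gamma culture 1 (adjusted p = 0.169) or 3 (0.198) and without control culture 2 (0.0776), 3 (0.0596), 5 (0.0741) or 6 (0.0919). A filter at a mean level of 5 removed the probe set.

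**Figure D3:**
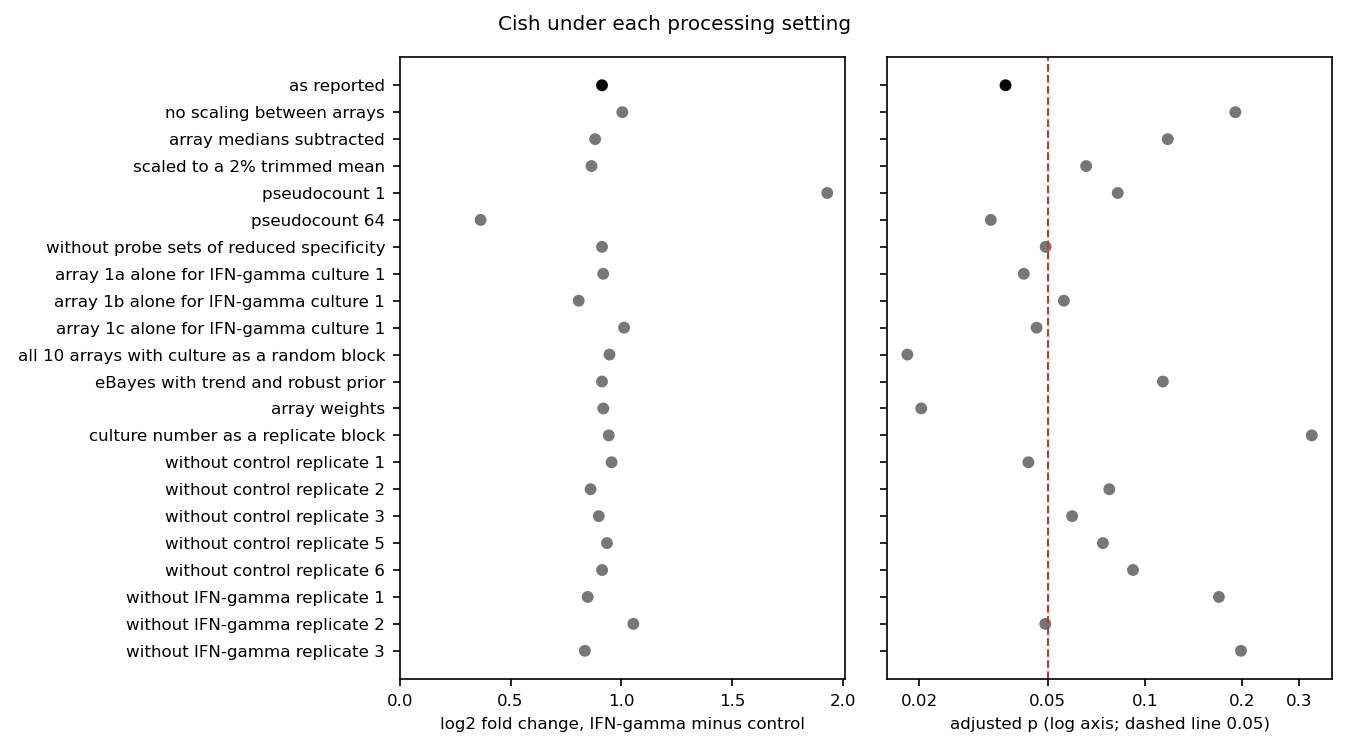
Cish under the reported setting (black) and the 21 other settings that tested it (grey), with the log2 fold change of IFN-gamma minus control on the left and the adjusted p, on a log axis, on the right. All 22 fold changes lie above 0, while 13 of the 21 other points lie to the right of the dashed line at 0.05.

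The promoter of Cish is shown because Cish was the 1 pathway gene that rose and because the STAT binding motif recurs in it. In the 300 bases from 250 before to 50 after the annotated start (RefSeq, GRCr8, chr8:116850719-116851018, plus strand) the letters TTCNNNGAA, which read the same on both strands, occurred 4 times without overlap. The promoter of Irf1 (GRCr8, chr10:38417685-38417984, plus strand) is shown beside it, as that of an interferon response gene, and it held the motif 1 time. The fixed letters of each match are in capitals.

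Cish: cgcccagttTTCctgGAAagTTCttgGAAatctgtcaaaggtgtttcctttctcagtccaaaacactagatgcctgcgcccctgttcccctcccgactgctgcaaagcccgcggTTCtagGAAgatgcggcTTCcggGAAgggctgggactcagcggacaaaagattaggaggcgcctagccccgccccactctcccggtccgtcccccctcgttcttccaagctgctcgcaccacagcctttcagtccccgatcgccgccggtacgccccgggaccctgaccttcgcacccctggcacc
Irf1: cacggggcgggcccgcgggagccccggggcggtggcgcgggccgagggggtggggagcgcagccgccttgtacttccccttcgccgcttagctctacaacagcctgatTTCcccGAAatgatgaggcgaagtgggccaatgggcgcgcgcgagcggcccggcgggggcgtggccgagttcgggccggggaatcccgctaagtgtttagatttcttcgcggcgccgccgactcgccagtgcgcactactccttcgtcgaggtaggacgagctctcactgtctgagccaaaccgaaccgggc

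The first base of the 4 matches in Cish lay at -241, -230, -136 and -119 relative to the start, and that in Irf1 at -142. The matches make 2 close pairs in Cish.

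Cish -241: TTCctgGAA
Cish -230: TTCttgGAA
Cish -136: TTCtagGAA
Cish -119: TTCcggGAA
Irf1 -142: TTCcccGAA

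The motif was present in 8.87% of 33469 promoter windows of this length, and 2 of them, 0.00598%, held it at least 4 times. Of the 9 pathway genes 8 had a window in the table, and Cish was the 1 with a match. Of the 12 measured interferon response genes 4 had a match (Irf1, Irf8, Psmb8 and Irgm2). A match describes the letters in this window and is not evidence that a STAT binds there.

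The genes whose level was most like that of Cish over the 8 cultures were Irgm2, an interferon-induced GTPase gene (Pearson r = 0.966), Serping1, the C1 inhibitor gene (r = 0.962), and B2m, the beta chain shared by class I molecules (r = 0.959). These were the highest of 960 genes with a mean level of at least 6. All 3 rose (log2 fold changes 2.60, 1.91 and 1.63, adjusted p = 0.00036, 0.00557 and 0.0017) and the 8 cultures include both groups, so r contains the difference between them.

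Socs3, the inhibitor that acts on gp130 receptors and on JAKs, did not follow Cish. Its level was 5.30, 5.19 and 5.79 in the IFN-gamma cultures, against 6.04, 5.51, 6.57, 4.82 and 6.32 in the controls. All 3 IFN-gamma cultures were below the control mean and within the control range, which spanned 1.75. The difference was -0.43, with an interval from -1.28 to 0.42 (adjusted p = 0.822). The 3 technical arrays of IFN-gamma culture 1 differed by up to 1.36 on this probe set, more than the groups did.

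Ptpn6 encodes SHP-1, the tyrosine phosphatase of blood-derived cells that dephosphorylates JAKs and other signalling proteins. By U77038_at it stood at 6.91, 7.03 and 7.27 in the IFN-gamma cultures, against 6.54, 6.05, 6.01, 6.69 and 5.71 in the controls. By U77038_g_at it stood at 7.20, 7.44 and 7.23 in the IFN-gamma cultures, against 7.13, 6.51, 5.58, 5.91 and 6.41 in the controls. U77038_g_at, the brighter, was counted among the probe sets of reduced specificity, and U77038_at was not. By each probe set all 3 IFN-gamma cultures were above all 5 controls, by the second with control culture 1 close beneath them. The differences were 0.87 (95% interval 0.32 to 1.42) and 0.99 (0.27 to 1.70), but neither passed over all probe sets (adjusted p = 0.168 and 0.246). The SD of the controls was 0.402 and 0.595, against 0.145 for Cish. The Cish controls lay near the floor, where the constant added before the log narrows the spread, so these SDs are not directly comparable. Without control culture 1 the adjusted p of U77038_g_at was 0.0665, the lowest of any setting for Ptpn6.

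**Figure D4:**
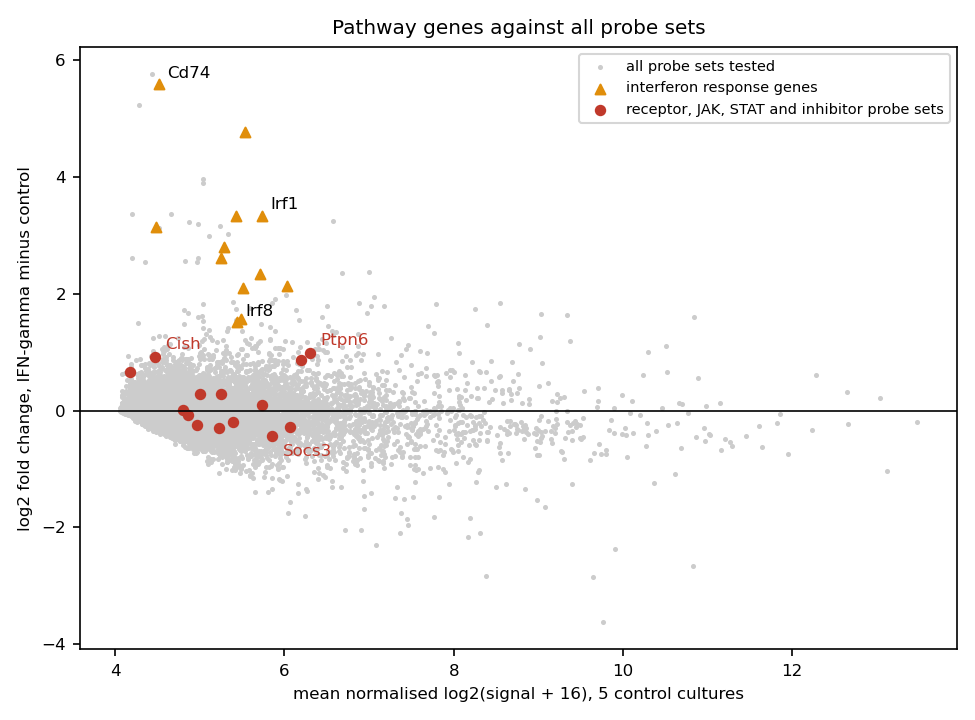
Log2 fold change of IFN-gamma minus control (y axis) against the mean normalised log2(signal + 16) of the 5 controls (x axis) for all 8740 probe sets (grey), with the 12 interferon response genes as orange triangles and the 14 pathway probe sets in red. The interferon response genes, drawn by the brightest probe set only, lie between 1.51 and 5.58. All 14 pathway probe sets lie below them, between -0.43 and 0.99. The dimmer Irf7 probe set (0.36), not drawn as a triangle, lies within the pathway range.

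The range over technical arrays 1a, 1b and 1c was larger than the difference between groups for 11 of the 14 probe sets, the exceptions being Cish and both Ptpn6 probe sets. The same count over all probe sets was not made, so whether 11 of 14 is usual on these arrays is not known. The median standard error was 0.3 over the 14 probe sets and 0.261 over all probe sets.

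Other genes of the pathway were taken from lists of known members and counted by each gene's brightest probe set, for which 0.887% of all genes rose and 0.697% fell. Of 16 cytokine receptor genes 0 passed (median log2 fold change -0.05). Il4r, which encodes the interleukin 4 receptor chain, came closest (0.64, adjusted p = 0.288). Of 21 genes for their ligands 0 passed (median -0.09), with Csf1, the growth factor of microglia, at 1.21 (adjusted p = 0.161). Csf1 stood at 6.48 ± 0.273 with IFN-gamma (SD, n = 3) and 5.27 ± 0.608 in the controls (SD, n = 5), and the groups overlapped.

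Of the 4 other JAK and STAT genes 0 passed, although all had positive differences (median 0.37). They were Stat2, which acts in type I interferon signalling (0.76, adjusted p = 0.249), Jak1 (0.44, adjusted p = 0.621), Stat4 (0.31, adjusted p = 0.683) and Stat6 (0.11, adjusted p = 0.945). Of 13 other inhibitors and phosphatases 0 passed (median 0.00). Those with the smallest p were Pias3, which encodes an inhibitor of STAT3 binding to DNA (-0.45, adjusted p = 0.687), Ptpn11, the phosphatase gene for SHP-2 (-0.33, adjusted p = 0.775), Sh2b3, an adaptor gene that restrains JAK2 (-0.27, adjusted p = 0.717), and Ptprc, the gene of the CD45 phosphatase (0.25, adjusted p = 0.787).

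Of 18 genes of the Src kinase, MAP kinase and PI3-kinase arm 0 passed (median 0.14). Lyn, a Src family kinase of myeloid cells, stood at 7.49 ± 0.0851 with IFN-gamma (SD, n = 3) and 6.45 ± 0.344 in the controls (SD, n = 5), a difference of 1.03 that missed the threshold (adjusted p = 0.0543). Its relative Fgr had 0.94 (adjusted p = 0.0819). Prkcd, a protein kinase C gene, had 0.64 (adjusted p = 0.201) and Camk2d, a calcium-dependent kinase gene, had -0.62 (adjusted p = 0.198). By the brightest probe set groups did not overlap for these 4 of the 18 genes. The share over all probe sets, not picked by gene, was 7.68%, and the share over genes by the brightest was not counted. Among the dimmer probe sets of the 4 genes, groups overlapped for Lyn rc_AA946044_s_at and for Camk2d J05072_at, L13406_s_at, L13407_i_at and rc_AI009268_at. They did not overlap for Lyn L14951_at, Prkcd M18330_at and Camk2d rc_AA925495_at.

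Of 23 genes known as STAT3 or STAT5 targets 0 rose and 1 fell by the brightest probe set (median -0.05). Igf1, which STAT5 induces in liver, fell by 1.86 on the log2 scale (adjusted p = 0.00176), while its 4 dimmer probe sets did not pass (-0.52 to 0.19). Icam1, an adhesion molecule gene, rose by 1 of its probe sets (1.13, adjusted p = 0.0459) and had 1.35 by the brighter (adjusted p = 0.0819). Cebpb, a myeloid transcription factor gene, had 1.09 (adjusted p = 0.0501), and Lcn2, an iron-binding secreted protein gene, had -0.83 (adjusted p = 0.237).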

How the data were processed

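RNA from cultured rat microglia was hybridised to Affymetrix rat genome arrays (10 arrays, 8 cultures). The authors deposited an intensity for every probe set, unlogged. MAS5 and GCRMA are named in the submitters' processing notes, without role or version. Array medians ran from 7.4 to 23.7, so arrays were rescaled here: log2(signal + 16), quantile normalisation over 10 arrays, then the mean of the technical arrays. The 59 array controls were not tested. limma 3.58.1 in R 4.3.3 compared the groups (lmFit, eBayes), and p-values were adjusted by Benjamini-Hochberg across all 8740 probe sets, with significance at 0.05. The step was tested on simulated data. The number of arrays limits the precision. Symbols came from the platform annotation, and all 14 members' symbols matched RefSeq by Entrez identifier. No label ties culture numbers to a common source, so no block was used. Members and lists were chosen with earlier results of these data known. All members were named, and from each list the genes past the threshold and up to 4 others with the smallest p. Alternatives covered scaling, pseudocount, filters, technical arrays, variance model, block and each culture left out.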

Additional observations from a re-analysis of the deposited data

Results flagged for a closer look

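The control value of 1 probe set stood apart from its group. Jak2 by U13396_g_at was 4.06 in control culture 3, with the gap to the next control taking 0.871 of the whole control range, while the other 4 controls lay between 5.15 and 5.31. Chance marks about 1 in 20 such groups, and 14 were examined. Without that culture the difference of this probe set was 0.05 in place of 0.29. Control culture 3 was also the dimmest array, and its part in the value was not tested.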

How the results depend on the processing

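The count of pathway probe sets that rose was 1 as reported and 0 with no scaling, array medians, the trimmed mean, the filter at a mean level of 5 (which removed Cish) or culture number as a replicate block, and 0 to 1 when each culture was left out. It was also 1 with a pseudocount of 1, array 1b alone or a trend and robust prior, but there the probe set was Jak2 U13396_at and Cish did not pass. Those with IFN-gamma above all controls were 4 as reported, 2 with no scaling (Cish and Jak2 U13396_at) and 2 with the filter. Those below were 0, and 1 (Ifngr1) with the trimmed mean, and 0 to 1 when each culture was left out. Over all probe sets 81 were higher and 53 lower as reported. Higher and lower calls were 38 and 1 with no scaling, 82 and 39 with the trimmed mean, 100 and 27 with array medians, 42 and 25 with a pseudocount of 1, 39 and 20 without probe sets of reduced specificity, 124 and 73 with all 10 arrays, and 17 and 5 with the replicate block. With no scaling the median log2 fold change of all probe sets was 0.10, against -0.02 as reported. Leaving out each culture gave 47 to 106 higher and 21 to 50 lower. Over the 107 genes of the pathway and interferon response lists 11 were higher, all of them interferon response genes, and 1 lower as reported, which became 6 and 0 without probe sets of reduced specificity, 6 and 0 with the replicate block, and 10 and 0 with no scaling. Same-numbered cultures did not deviate together (correlations -0.03, 0.00 and -0.01), and whether they had a common source is not given in the labels. Values near 0 changed sign, none of them called: Jak2 AJ000557cds_s_at (-0.08) to 0.106 with no scaling, 0.129 with array 1b alone, and -0.238 to 0.032 when cultures were left out, Stat3 rc_AI639141_at (-0.20) to 0.020 and 0.089 with no scaling and array 1a alone and -0.410 to 0.031 when cultures were left out, Stat3 X91810_at (0.00) to -0.085, -0.0054, -0.194 and -0.215 with the trimmed mean, a pseudocount of 64, array 1a alone and the block and -0.164 to 0.188 when cultures were left out, Stat5b (0.10) to -0.0026 and -0.354 with array 1a alone and the block and -0.085 to 0.289 when cultures were left out, and Stat5a (0.28) to -0.299 by its other probe set and -0.0091 by the median of both. The causes were not tested.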
